A study of Mus musculus with 6 samples.

Results

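Mouse embryonic stem cells that had not lost Pcgf6 were compared between a line carrying a scrambled hairpin and 2 lines carrying hairpins against Pcgf6 that were not switched on. The comparison used 4 of the 6 arrays of the series, chosen by their labels and not by any measured value. The scrambled group held Scrambled+dox and Scrambled-dox (n = 2), and the uninduced hairpin group held shRNA1-dox and shRNA2-dox (n = 2). All 4 samples were V6.5 mouse cells with a hairpin under control of doxycycline (dox), and only Scrambled+dox had received the drug, at 1 µg/ml. Per the labels' protocols, such cells were grown on DR4 mouse embryo fibroblasts inactivated with mitomycin C, in serum with leukemia inhibitory factor, so that every sample could hold RNA of these feeder cells. The labels do not say whether a line was a clone or a pool, or whether the arrays came from separate cultures. Any p therefore measures only the spread between these arrays, which may be technical. Each shRNA line was seen without dox on 1 array, so the line and the array cannot be told apart. Both scrambled arrays came from 1 line, with and without dox, so their spread includes any effect of dox. The spread of the uninduced hairpin arrays is between 2 lines.

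Feeder cells are fibroblasts that no longer divide and that supply matrix, adhesion and signals to stem cells growing on them. They carry collagens, proteoglycans and secreted proteases that stem cells in the undifferentiated state express little or not at all, so their transcripts mark how much feeder RNA a stem cell sample holds. Embryonic stem cells are epithelial in character: they form compact colonies joined by cadherin, and a minority can show genes of the trophectoderm, the outer epithelium of the blastocyst. A scrambled hairpin has no intended target, which makes such a line the usual control for the hairpin machinery and for dox. What a comparison of uninduced lines can show is how far control and test lines differed before any knockdown.

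Expression was read on GeneChip Mouse Gene 1.0 ST arrays, which summarise each transcript by a set of probes. All values are log2 expression after RMA, so 1 unit is a doubling. This normalization brings the arrays close to a common distribution, so a shift that most genes had in common is largely removed. Small shifts between arrays remained, with array medians from 7.02 to 7.08. Of 35556 probe sets, 19938 genes were described by 1 probe set each. A difference is always the mean of the scrambled arrays minus the mean of the uninduced hairpin arrays, and an SE is limma's moderated standard error. Pcgf6, the subunit of the noncanonical polycomb complex PRC1.6 that the hairpins target, measured 11.82 in Scrambled+dox, 11.80 in Scrambled-dox, 11.56 in shRNA1-dox and 11.70 in shRNA2-dox. The 2 induced hairpin arrays, which were outside the comparison, measured 9.39 and 9.27. Pcgf6 was thus high in all 4 samples compared, with both scrambled arrays above both uninduced hairpin arrays by a difference of 0.18 (SE 0.10; adjusted p = 0.949 by limma).

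No gene passed the test between the lines: limma called 0 of 19938 genes (0%) at an adjusted p under 0.05, with 1078 genes at an unadjusted p under 0.05. The smallest adjusted p was 0.742. No gene in what follows passed the test, and all differences are given as measured values. Related genes showed 2 patterns of measured differences. Lum, Dpt, Ccl2, Mmp3 and a number of other genes of stroma were lowest in Scrambled-dox, intermediate in Scrambled+dox and highest in the uninduced hairpin samples. Sfn, Cldn4, Grhl3, Krt18 and a number of other genes of epithelia were higher in both scrambled samples than in both uninduced hairpin samples.

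Arrays of different groups were not always farther apart than arrays of the same group. Counting genes that differed at least 1.5-fold between 2 arrays, Scrambled+dox and shRNA1-dox were the closest of all, with 100 genes. Within the scrambled group the count was 338, of which 296 were higher in Scrambled+dox, and between both uninduced hairpin arrays it was 219. The remaining between-group counts were 313 for Scrambled+dox and shRNA2-dox, 354 for Scrambled-dox and shRNA2-dox and 632 for Scrambled-dox and shRNA1-dox. Scrambled-dox was thus the array most unlike the uninduced hairpin samples, and 564 of its 632 genes against shRNA1-dox were lower in it.

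**Figure D1:**
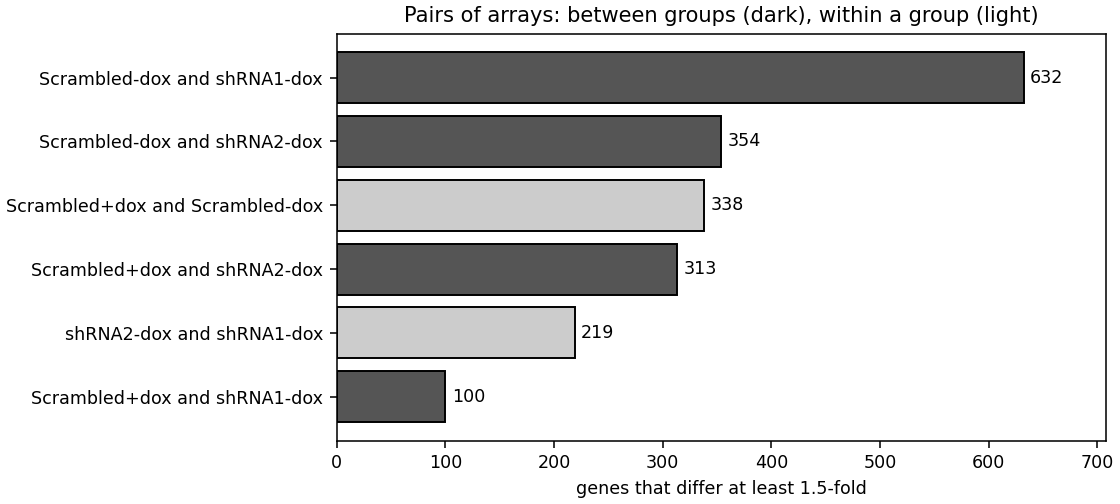
Number of genes, of 19938, that differed at least 1.5-fold between each pair of arrays; dark bars join arrays of different groups and light bars arrays of the same group. The shortest bar, 100 genes for Scrambled+dox and shRNA1-dox, is a between-group one, and the bar within the scrambled group reaches 338.

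Groups were said not to overlap for a gene where both scrambled arrays lay on the same side of both uninduced hairpin arrays. This held with the scrambled arrays lower for 3783 genes (19% of all genes) and with them higher for 2894 genes (14.5%), most by small amounts. That split depends on the scaling: after centring each array on its median it was 2651 lower and 4074 higher, and after quantile normalization 3061 lower and 3845 higher. A much stricter rule asked that each of the 4 between-group differences be at least 1.5-fold in the same direction. It was met by 13 genes with the scrambled arrays lower (0.0652%) and by 2 genes with them higher (0.01%). The lower ones were the 12 described next and Mir297b, a microRNA model outside the rule for names, and the higher ones were Sfn and Zbtb10. Leaving out an array raises such counts, since fewer differences have to pass: they were 213 lower and 20 higher without Scrambled+dox, 33 and 18 without Scrambled-dox, 93 and 17 without shRNA1-dox, and 36 and 7 without shRNA2-dox. Without Scrambled+dox all samples were free of dox.

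The genes with the widest gap between the groups are described by the smallest of the 4 between-group differences, the measure that chose them. On the lower side they included matrix proteins, other secreted proteins, chemokines and receptors. Serpina3n, a secreted inhibitor of serine proteases, measured 8.0 in Scrambled+dox and 7.64 in Scrambled-dox against 8.79 in shRNA1-dox and 9.11 in shRNA2-dox. Its difference was -1.13 (SE 0.16), a 2.19-fold lower level. Lum, the collagen-binding proteoglycan lumican, measured 6.40 and 6.01 against 7.09 and 7.84 in the same order of arrays, a difference of -1.26 (SE 0.25). In both genes the 4 arrays kept the order Scrambled-dox, Scrambled+dox, shRNA1-dox, shRNA2-dox, from low to high.

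Dpt, the matrix protein dermatopontin, measured 8.78 with dox and 8.06 without it in the scrambled line and 9.46 and 9.97 in shRNA1-dox and shRNA2-dox. Ereg, epiregulin, a ligand of the epidermal growth factor receptor, measured 8.04 and 7.33 in the scrambled arrays and 8.67 and 8.96 in the hairpin arrays. Tac1, the precursor of substance P, ran at lower levels, 6.27 and 5.58 against 6.91 and 7.42. All of these again had Scrambled-dox lowest and shRNA2-dox highest. The other genes of widest gap were Wfdc17 (-1.24), the secreted regulator Ccn3 (-0.73), S1pr3, a receptor for sphingosine-1-phosphate (-0.96), Il1rl2, the receptor of interleukin-36 (-0.76), Srpx2 (-1.13) and the chemokines Ccl7 (-1.24) and Ccl2 (-1.39), each value being the difference. In 12 of the 12 genes Scrambled+dox stood above Scrambled-dox, by a median of 0.52, and the gap to the hairpin arrays ran from 0.59 to 0.79. Each of the 12 had an adjusted p of 0.742 by limma.

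**Figure D2:**
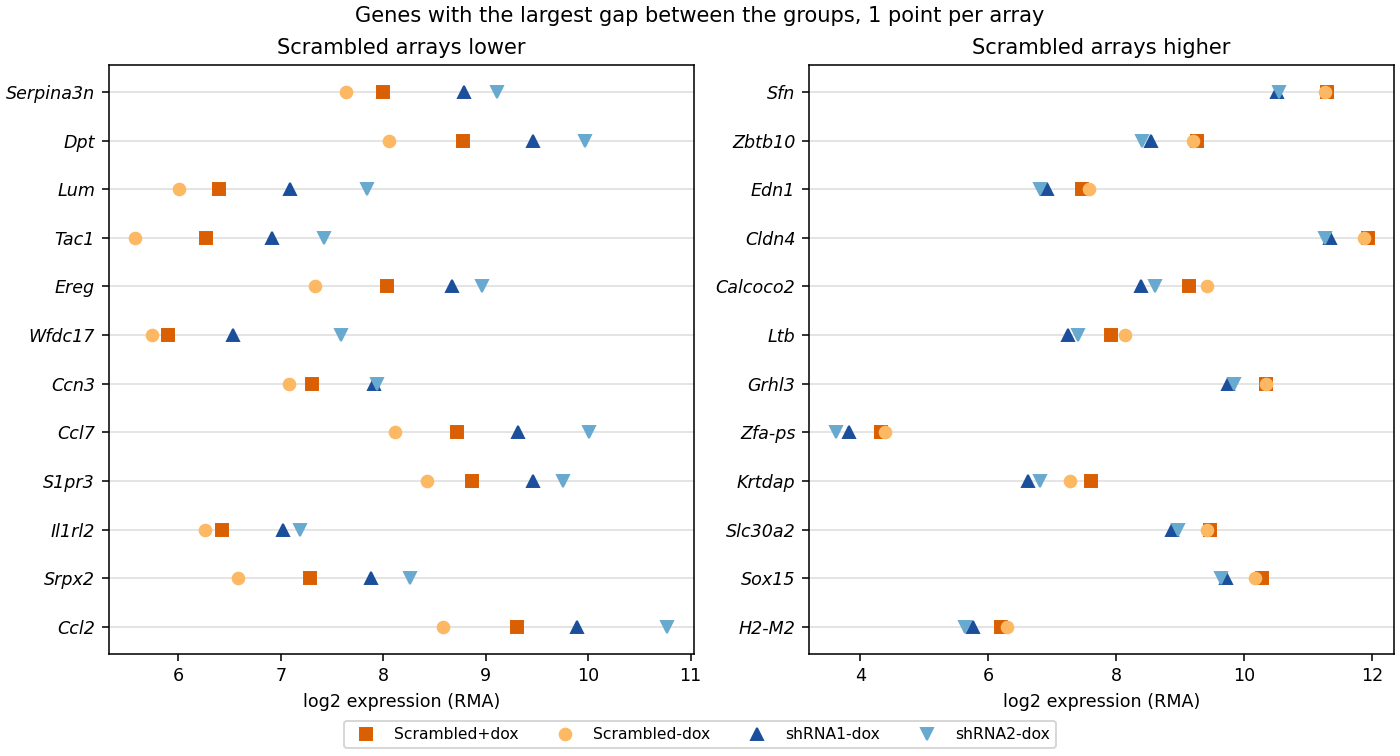
log2 expression of the 12 genes with the widest gap between the groups in each direction, 1 point per array; squares and circles are the scrambled arrays with and without dox, triangles the uninduced hairpin arrays. On the left the 4 points spread out, with Scrambled-dox lowest for all 12 genes; on the right neither scrambled array is always the higher, and the points of a group nearly coincide for Sfn, at about 11.29 and 10.51, but not for Krtdap or Calcoco2.

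On the higher side the 12 genes of widest gap had no common order within the groups. Scrambled+dox was the higher scrambled array in 6 of the 12, with differences from Scrambled-dox between -0.28 and 0.34, and shRNA2-dox differed from shRNA1-dox by -0.21 to 0.22. Sfn, the epithelial 14-3-3 protein stratifin that holds cells at the G2 checkpoint, measured 11.29 and 11.26 in Scrambled+dox and Scrambled-dox and 10.51 and 10.53 in shRNA1-dox and shRNA2-dox. Its difference of 0.75 (SE 0.09) is 1.69-fold, and its adjusted p was 0.742 by limma. Zbtb10, a zinc finger transcription factor, measured 9.26 and 9.20 against 8.54 and 8.41. For both genes the arrays of a group differed far less than the groups did. The rule that chose them favours such genes and lets no array cross into the other group.

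Cldn4, a claudin of epithelial tight junctions, measured 11.92 and 11.86 in the scrambled arrays and 11.33 and 11.25 in the uninduced hairpin arrays. Grhl3, a grainyhead transcription factor of surface epithelia, stood at 10.34 and 10.34 against 9.74 and 9.83. Both were bright genes, well above the lower quartile of 5.98 to 6.06 that the 4 arrays had over all genes. The others, with their differences, were the vasoconstrictor peptide Edn1 (0.66), the autophagy receptor Calcoco2 (0.78), lymphotoxin beta, Ltb (0.70), the keratinocyte gene Krtdap (0.72), the zinc exporter Slc30a2 (0.53), Sox15 (0.54), H2-M2 (0.54) and the pseudogene Zfa-ps (0.63), the last below the lower quartile on every array. By the smallest p of the fit, Smarca1, a chromatin remodelling ATPase, and Glipr1 joined the lower genes, with differences of -0.68 (SE 0.10) and -0.58 (SE 0.10). Smarca1 measured 7.38 and 7.29 in the scrambled arrays and 8.08 and 7.95 in the hairpin arrays. Unlike Dpt and Ccl2, it differed little within the scrambled line.

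The induced hairpin arrays were not used to choose these genes, but a comparison with them would use the same scrambled arrays, so their levels are only set beside the others. Sfn measured 10.80 in shRNA1+dox and 10.78 in shRNA2+dox, and Zbtb10 8.50 and 8.71, all below both scrambled arrays. Cldn4 measured 11.51 and 11.62 and Grhl3 9.95 and 10.19 in these samples, also below the scrambled arrays. Sfn, Cldn4 and Grhl3 were nevertheless above both uninduced hairpin arrays on both induced arrays, whereas Zbtb10 was so only on shRNA2+dox. Krtdap measured 7.39 and 7.23, again above both uninduced hairpin arrays, and in shRNA1+dox it lay between both scrambled arrays. Lum measured 7.0 and 8.34 and Serpina3n 8.70 and 9.66, above both scrambled arrays, with shRNA2+dox the highest of all 6 arrays for each. Slc30a2 measured 9.36 and 9.43 and Smarca1 7.52 and 7.40 in the induced arrays, nearer to the scrambled arrays than to the uninduced hairpin arrays.

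Feeder content was measured by 20 fibroblast markers, 19 of which had a probe set of their own. Their mean was 9.80 in Scrambled+dox, 9.24 in Scrambled-dox, 10.13 in shRNA1-dox and 9.99 in shRNA2-dox. The scrambled mean of 9.52 ± 0.40 (SD, n = 2) was below the hairpin mean of 10.06 ± 0.10 (SD, n = 2), and no scrambled array reached a hairpin array. The first SD is between arrays of the same line with and without dox, the second between different lines. The difference of -0.53 had p = 0.333 by a two-sided exact permutation test, the smallest p that 2 arrays against 2 can give. It was -0.81 without Scrambled+dox and -0.25 without Scrambled-dox. In bulk samples such as these, fewer feeder cells and less RNA of these genes per cell cannot be told apart.

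The feeder markers themselves pointed almost all the same way, 18 with a negative and 1 with a positive difference, and 12 of the 19 (63.2%) had groups that did not overlap, all with the scrambled arrays lower, against 19% of all genes. Their median of -0.51 was -0.20 without Scrambled-dox and -0.81 without Scrambled+dox. None passed the test. Dcn, the proteoglycan decorin, measured 10.70 and 10.11 in Scrambled+dox and Scrambled-dox against 11.18 and 11.38 in shRNA1-dox and shRNA2-dox, a difference of -0.88 (SE 0.19). Twist2, a transcription factor of dermal fibroblasts, had the values 9.37 and 8.30 against 9.77 and 10.04, and Prrx1, a homeobox factor of limb and skull mesenchyme, 10.37 and 9.25 against 10.70 and 10.46. For both, Scrambled+dox lay nearer to a hairpin array than to Scrambled-dox. Postn, the matrix protein periostin, differed by -0.75, the growth factor receptor Pdgfrb by -0.76, and the surface antigen Thy1 by -0.62. Without Scrambled-dox these were -0.43, -0.41 and -0.28, and Twist2 and Prrx1 went from -1.07 and -0.77 to -0.54 and -0.21.

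Contractile markers of the same cells followed less. Acta2, smooth muscle actin, measured 12.32 and 11.82 against 12.57 and 12.15, so that shRNA2-dox fell between both scrambled arrays, and Tagln, transgelin, did likewise with 10.70 and 10.14 against 10.82 and 10.39. Cnn1, calponin, was the feeder marker with a positive difference, 0.07. Over a list of 22 contractile genes, 3 had non-overlapping groups with the scrambled arrays lower and 5 with them higher, shares of 13.6% and 22.7%, and their median difference was 0.03 beside -0.01 for all genes. Among them Actg2, enteric smooth muscle actin, had a difference of -0.64 and Cnn2 one of 0.24.

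**Figure D3:**
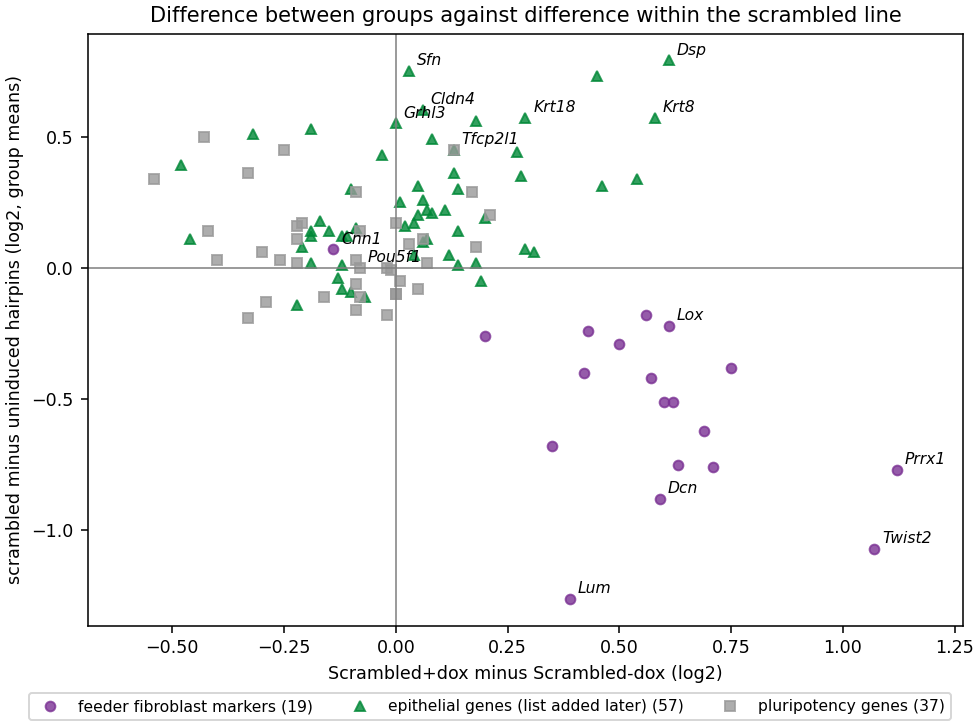
Difference between the groups (vertical, log2) against the difference between Scrambled+dox and Scrambled-dox (horizontal, log2), 1 point per gene for the feeder markers, the epithelial genes and the pluripotency genes. Feeder markers fill the lower right, with Cnn1 apart, whereas Sfn, Cldn4 and Grhl3 sit above 0 on the vertical axis near 0 on the horizontal one.

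Matrix genes made by fibroblasts were followed in a list of their own. Of 35 genes for matrix proteins and their crosslinking enzymes, 15 (42.9%) had non-overlapping groups with the scrambled arrays lower and 1 with them higher, and the median difference was -0.38. That median was -0.17 without Scrambled-dox, -0.21 without shRNA1-dox, -0.58 without shRNA2-dox and -0.70 without Scrambled+dox. All 15 had Scrambled-dox below Scrambled+dox. Thbs2, the matricellular protein thrombospondin 2, measured 11.12 and 10.20 in the scrambled arrays against 11.40 and 11.76 in the hairpin arrays, a difference of -0.92 that was -0.46 without Scrambled-dox. Aspn, asporin, had a difference of -0.84. Collagen chains differed less as a group, with a median of -0.13 over 23 genes and 7 (30.4%) without overlap, all lower. It was -0.25 without Scrambled+dox and -0.08 without Scrambled-dox or without shRNA1-dox. Among them Col6a1 (-0.68), Col6a2 (-0.71) and Col6a3 (-0.68) had larger differences than Col1a1 (-0.42), Col1a2 (-0.51) and Col3a1 (-0.26). Col6a2 measured 8.42 and 8.13 against 8.91 and 9.06, while for Col1a1 the values 10.05 and 9.48 against 10.34 and 10.02 overlapped. These contrasts between genes of a list are descriptions, and no test of them was made.

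Matrix metalloproteinases cut collagen and other matrix, and several are made in bursts by stimulated fibroblasts. Of 29 proteases and inhibitors, 18 (62.1%) had non-overlapping groups with the scrambled arrays lower and 0 with them higher, with a median difference of -0.34. That median was -0.15 without Scrambled-dox and -0.55 without Scrambled+dox. Mmp3, stromelysin-1, measured 9.25 and 8.35 in Scrambled+dox and Scrambled-dox against 9.69 and 10.88 in shRNA1-dox and shRNA2-dox. Its difference of -1.49 (SE 0.42) was 2.80-fold, and without shRNA2-dox, the highest array, it was -0.89. Mmp13, collagenase-3, measured 7.24 and 6.74 against 7.79 and 9.10, and its difference of -1.46 was -0.80 without shRNA2-dox. Mmp10, stromelysin-2, measured 7.77 and 7.20 against 7.94 and 8.58, and Mmp19 had a difference of -0.97.

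The proteases Mmp3, Mmp10 and Mmp13 lie on chromosome 9 and had the same order of arrays, as did genes elsewhere such as Lum and Ccl2. Their promoters are shown as examples, from RefSeq on GRCm38.p6, 250 bases before to 50 after the annotated start, 5′ to 3′. Capitals mark matches to the AP-1 motif TGANTCA, in which N is any base, and to the TATA box motif TATAAA, each searched on both strands. Mmp3 spans chr9:7445572-7445871, Mmp10 chr9:7502092-7502391 and Mmp13 chr9:7272264-7272563, all on the plus strand.
Mmp3: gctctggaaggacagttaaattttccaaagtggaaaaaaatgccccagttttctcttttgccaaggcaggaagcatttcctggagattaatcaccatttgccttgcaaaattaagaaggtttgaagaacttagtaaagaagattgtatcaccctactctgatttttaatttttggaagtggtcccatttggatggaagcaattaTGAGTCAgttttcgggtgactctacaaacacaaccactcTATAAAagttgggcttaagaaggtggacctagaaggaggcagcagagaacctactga
Mmp10: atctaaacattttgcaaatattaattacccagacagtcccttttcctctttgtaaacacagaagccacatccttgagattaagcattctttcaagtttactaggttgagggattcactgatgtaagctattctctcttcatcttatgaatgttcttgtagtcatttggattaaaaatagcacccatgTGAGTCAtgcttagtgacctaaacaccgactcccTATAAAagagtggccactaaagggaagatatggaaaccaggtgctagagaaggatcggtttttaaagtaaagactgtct
Mmp13: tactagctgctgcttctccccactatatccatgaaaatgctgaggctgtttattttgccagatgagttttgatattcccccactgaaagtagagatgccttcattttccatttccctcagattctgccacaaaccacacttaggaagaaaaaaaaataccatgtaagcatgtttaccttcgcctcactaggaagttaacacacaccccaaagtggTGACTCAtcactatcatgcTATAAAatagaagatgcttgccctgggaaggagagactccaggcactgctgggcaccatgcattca
The AP-1 match began 46 bases before the start of Mmp3, 63 before that of Mmp10 and 35 before that of Mmp13, each with a TATA match closer to the start. Promoters were found for 18 of the 29 genes of the protease list, 21 promoters in all, and 7 of these (33.3%) held an AP-1 match, against 7.81% of all 32851 promoters. Those 7 belonged to 6 genes, among them the related neighbours Mmp3, Mmp10 and Mmp13. TATA matches were in 38.1% of the list's promoters and in 13.6% of all. Of the 9 promoters found for feeder markers 0 held an AP-1 match, and of those of collagen chains 4.76% did. A match is a description of the sequence and says nothing of what bound there in these samples.

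Several chemokines and growth factors released by stroma were lower in the scrambled arrays too. Ccl2, which draws monocytes, measured 9.30 and 8.58 in Scrambled+dox and Scrambled-dox against 9.89 and 10.77 in shRNA1-dox and shRNA2-dox, and the related Ccl7 8.72 and 8.12 against 9.32 and 10.0. Ccl11, eotaxin, had the largest mean difference of the list, -1.55 (SE 0.56), but its values of 6.96 and 6.59 against 7.35 and 9.30 have shRNA2-dox far above the rest. Without shRNA2-dox its difference was -0.58. Cxcl14 differed by -0.98. Over 33 chemokines and cytokines, 10 (30.3%) had non-overlapping groups with the scrambled arrays lower and 3 (9.09%) with them higher, and the median was -0.10. Cxcl10, an interferon-induced chemokine, was among the 3 higher ones, at 7.20 and 7.10 against 6.96 and 6.82.

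Of 53 growth factors and their binding proteins, 22 (41.5%) had non-overlapping groups with the scrambled arrays lower and 1 with them higher, with a median of -0.29. That median rested largely on Scrambled-dox: it was -0.06 without it, -0.16 without shRNA1-dox, -0.33 without shRNA2-dox and -0.43 without Scrambled+dox. Fgf7, a fibroblast growth factor that acts on epithelium, measured 7.43 and 6.75 against 7.93 and 8.42. Wnt5a, a ligand of the noncanonical Wnt pathway, measured 8.33 and 7.28 against 8.71 and 8.80, and Igfbp5 differed by -0.95. Without Scrambled-dox the differences were -0.43 for Wnt5a and -0.45 for Igfbp5, and without Scrambled+dox -1.47 and -1.46. Pdgfra, the receptor for platelet-derived growth factor on mesenchyme, had a difference of -0.92. Of 33 genes for fibroblast surface proteins and transcription factors, which include Pdgfra, 17 (51.5%) had non-overlapping groups with the scrambled arrays lower and 1 with them higher. Their median of -0.27 was -0.12 without Scrambled-dox, -0.18 without shRNA1-dox, -0.44 without shRNA2-dox and -0.46 without Scrambled+dox.

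**Figure D4:**
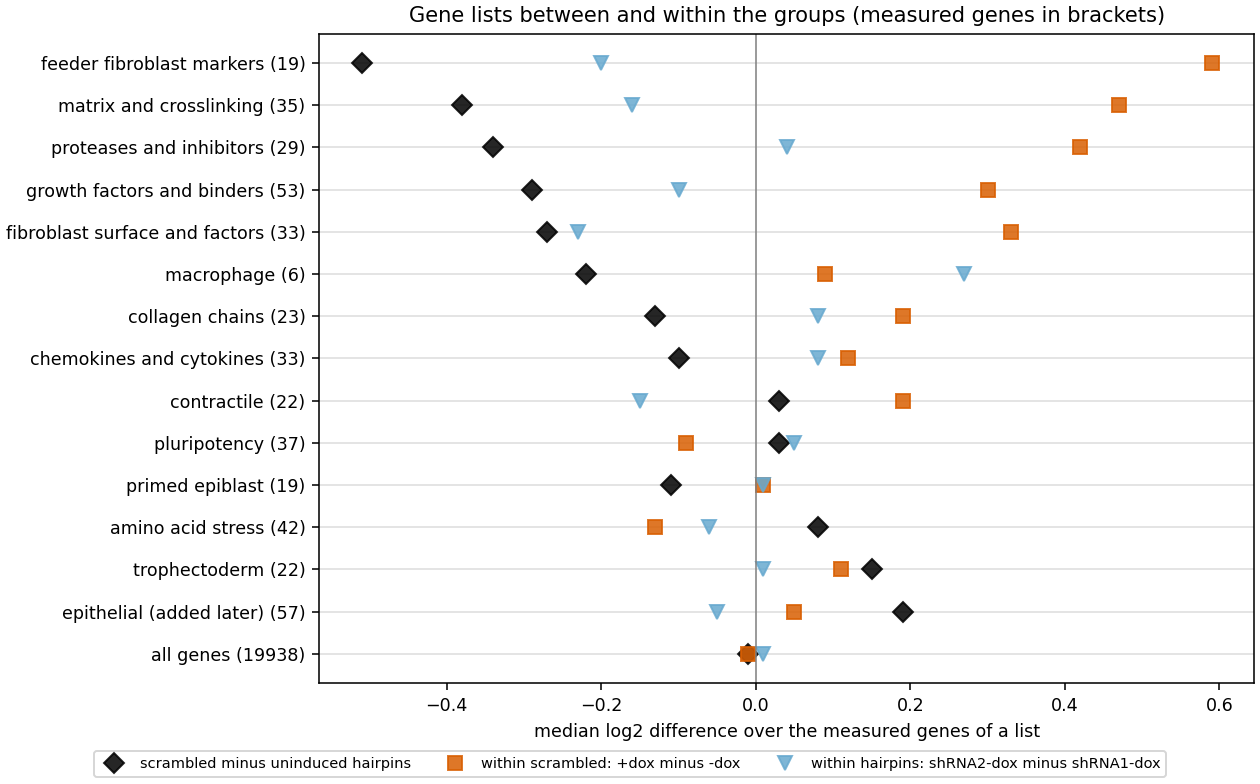
Median log2 difference over the measured genes of each list: diamonds are scrambled minus uninduced hairpins, squares Scrambled+dox minus Scrambled-dox, and triangles shRNA2-dox minus shRNA1-dox. Stromal lists lie left of 0 between the groups and right of 0 within the scrambled line, down to -0.51 and up to 0.59 for the feeder markers, while the epithelial list lies at 0.19 between the groups and 0.05 within the line.

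A fit with the feeder list's mean on each array as a covariate was made over all 6 arrays and 3 group means. Its slope rests on differences within groups, widest between Scrambled+dox (9.8) and Scrambled-dox (9.24), a pair that also differs by dox. The feeder means were 10.13 and 9.99 in the uninduced and 10.12 and 10.43 in the induced hairpin arrays. The fit therefore cannot say how much of the stromal pattern is due to feeder content, and its medians are given as values only. The median difference of the proteases then went from -0.34 to 0.04, of the matrix genes from -0.38 to 0.07, and of the growth factors from -0.29 to 0.09. The feeder markers themselves went to 0.04, which the covariate's own construction brings about. The matrix list shares Postn, Lum, Dcn, Lox and Ccdc80 with the covariate, and the protease list shares Mmp2 with it. The 12 lower genes of widest gap, chosen by their values on these arrays, had negative differences from -0.83 to -0.17. In that fit limma called 0 genes, with 869 at an unadjusted p under 0.05. The epithelial genes described below, listed after their values were seen, had a median of 0.28 in that fit and 0.19 without the covariate. As a list they differed little within the scrambled pair. Their median moved all the same, and nothing follows from its sign or its size.

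Markers of macrophages were followed as well, since feeder preparations from embryos can carry them. Of 6 fixed markers, 3 had non-overlapping groups with the scrambled arrays lower and 1 had them higher, beside 19% lower and 14.5% higher of all genes. Among the 3 lower ones, Csf1r had a smallest between-group difference of only -0.03. The list mean was 7.07 in Scrambled+dox, 6.99 in Scrambled-dox, 7.17 in shRNA1-dox and 7.46 in shRNA2-dox. Lyz2, lysozyme, measured 8.68 and 8.44 against 9.16 and 9.85, and Tyrobp, a signalling adaptor of myeloid cells, 6.58 and 6.52 against 6.74 and 7.16. Cd68, a lysosomal protein, was the higher one, with a difference of 0.16, and Itgam lay below the lower quartile on all 4 arrays. On a wider list of 30 macrophage genes, written after the values were seen, 15 had non-overlapping groups with the scrambled arrays lower and 2 with them higher. A number of its genes lay below the lower quartile on all 4 arrays, and others overlapped. That list's median was 0.28 higher in shRNA2-dox than in shRNA1-dox, whereas the feeder markers were 0.20 lower in shRNA2-dox by the same measure. Ccl11 and Mmp13, singled out after their values were seen, were highest on shRNA2-dox, the array with the highest macrophage mean, while the feeder mean was highest on shRNA1-dox. The part of either in these differences was not tested.

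Short lists of markers covered other cell types that an embryonic feeder layer could hold, beside 19% lower and 14.5% higher of all genes. The 6 endothelial markers had 0 genes without overlap, and their means lay between 6.87 and 6.99 on the 4 arrays. The 6 skeletal muscle markers had 0 lower and 1 higher, the 4 cartilage markers 2 lower and 0 higher, and the 4 fat markers 1 lower and 2 higher. In each of these lists 1 or 2 markers lay below the lower quartile on all 4 arrays.

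The epithelial genes formed the second pattern. A list of 60 genes for cell junctions, keratins and epithelial transcription factors was written after Sfn, Cldn4 and Grhl3 had been seen, so it describes their surroundings and supports nothing. Of its 57 measured genes, 39 (68.4%) had non-overlapping groups with the scrambled arrays higher, against 14.5% of all genes, and 1 (Grhl2) with them lower. The median difference was 0.19, and it stayed between 0.18 and 0.22 when any 1 array was left out. Within the groups the medians were 0.05 for Scrambled+dox minus Scrambled-dox and -0.05 for shRNA2-dox minus shRNA1-dox. The epithelial list was about as far from the hairpin arrays in Scrambled-dox as in Scrambled+dox, with medians of 0.19 and 0.22 against the hairpin mean.

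The simple keratins, intermediate filaments of simple epithelia such as the trophectoderm, showed some of the larger values. Krt18 measured 10.97 and 10.69 in Scrambled+dox and Scrambled-dox against 10.26 and 10.26 in shRNA1-dox and shRNA2-dox, a difference of 0.57 (SE 0.12). Its partner Krt8 measured 12.07 and 11.50 against 11.24 and 11.19, and Krt19 9.01 and 8.56 against 8.17 and 7.93. Unlike Sfn and Cldn4, the keratins were clearly higher in Scrambled+dox than in Scrambled-dox. Dsp, the desmosomal linker desmoplakin, had the same shape with 10.89 and 10.28 against 9.89 and 9.69. In the induced hairpin arrays Krt18 reached 10.65 and 10.98 and Krt8 11.69 and 11.90, above both uninduced hairpin arrays.

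Other members of the list differed less between both scrambled arrays. Itga3, an integrin that binds laminin, measured 8.59 and 8.41 against 7.99 and 7.89, and the epithelial factor Elf3 9.47 and 9.66 against 9.11 and 8.96. Llgl2, a protein of epithelial polarity, measured 9.56 and 9.59 against 9.22 and 9.09. Cdh1, E-cadherin, had a small difference of 0.11 with no overlap, whereas Epcam, another adhesion molecule of epithelia, differed by -0.09 with groups that overlapped. The genes named from that list were chosen after their values were seen.

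Genes of the trophectoderm, fixed in a list of their own, included the simple keratins. Of 22 measured, 10 (45.5%) had non-overlapping groups with the scrambled arrays higher and 0 with them lower, with a median of 0.15. Those 10 were Tfap2c, Gata2, Hand1, Id2, Fgfr2, Tpbpa and the keratins Krt7, Krt8, Krt18 and Krt19. For Gata2, Hand1, Id2, Krt7 and Tpbpa the groups were barely apart, with a smallest between-group difference of 0.06 or less. Tfap2c, which trophectoderm shares with stem cells and germ cells, measured 10.24 and 10.55 against 9.86 and 9.92, and Tead4, not on that list but on the epithelial one, 8.99 and 8.92 against 8.50 and 8.43. Cdx2, the factor that specifies trophectoderm, measured 7.49 and 7.27 against 7.37 and 7.27, and Elf5 and Tpbpa lay below the lower quartile on all 4 arrays. The epidermal keratin Krt14 was dim, with a difference of 0.26.

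For the genes of widest gap on the higher side, promoters were available for 9 of 12, and the AP-1 motif occurred in 2 of these, those of Cldn4 (chr5:134946885-134947184, minus strand) and Krtdap (chr7:30787655-30787954, plus strand). Both are shown beside that of Sfn (chr4:133602119-133602418, minus strand), which held neither motif and whose gene had the widest gap of all on that side. They are printed 5′ to 3′ in the direction of the gene, from RefSeq on GRCm38.p6, with AP-1 and TATA matches in capitals as before.
Cldn4: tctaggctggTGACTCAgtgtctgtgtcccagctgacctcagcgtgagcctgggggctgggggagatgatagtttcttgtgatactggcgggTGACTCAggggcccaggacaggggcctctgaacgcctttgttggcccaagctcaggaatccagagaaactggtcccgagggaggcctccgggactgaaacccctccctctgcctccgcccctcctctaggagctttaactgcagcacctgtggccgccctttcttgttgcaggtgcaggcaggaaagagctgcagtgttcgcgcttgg
Krtdap: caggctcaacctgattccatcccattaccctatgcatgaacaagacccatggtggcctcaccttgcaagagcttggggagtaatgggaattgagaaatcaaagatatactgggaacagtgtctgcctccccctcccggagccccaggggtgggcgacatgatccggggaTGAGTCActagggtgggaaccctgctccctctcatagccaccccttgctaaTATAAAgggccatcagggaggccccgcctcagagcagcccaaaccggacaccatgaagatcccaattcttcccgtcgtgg
Sfn: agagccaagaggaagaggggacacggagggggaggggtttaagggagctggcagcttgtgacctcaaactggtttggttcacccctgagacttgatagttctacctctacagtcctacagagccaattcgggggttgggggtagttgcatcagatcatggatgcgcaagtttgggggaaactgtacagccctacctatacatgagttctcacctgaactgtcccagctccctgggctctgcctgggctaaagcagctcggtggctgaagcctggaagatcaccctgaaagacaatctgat
Over the promoters found for the epithelial list, 15.0% held an AP-1 match, and over those of the trophectoderm list 10.0%, against 7.81% of all promoters. That Sfn has no match says only that these letters are not in this window.

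Pluripotency genes were high in all 4 samples. The mean of 37 pluripotency genes was 11.13 in Scrambled+dox, 11.25 in Scrambled-dox, 11.08 in shRNA1-dox and 11.14 in shRNA2-dox, a difference of 0.08 (11.19 ± 0.08 against 11.11 ± 0.04, SD, n = 2 each; p = 0.667, two-sided exact permutation test). Pou5f1, the factor OCT4, lay between 12.56 and 12.64 on all 4 arrays. Nanog measured 12.38 and 12.47 in the scrambled arrays against 12.12 and 12.14, a difference of 0.29 (SE 0.09). Of the list, 12 genes (32.4%) had non-overlapping groups with the scrambled arrays higher and 10 (27.0%) with them lower, and 0 passed the test.

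The members with the largest differences were Tcl1, Tfcp2l1, Prdm14 and Nr5a2. Tfcp2l1, a naive factor of the grainyhead family that is also on the epithelial list, measured 11.48 and 11.35 against 10.99 and 10.95, a difference of 0.45 (SE 0.09). Prdm14, a repressor of the primed state, measured 8.42 and 8.66 against 8.04 and 8.14, and Tcl1, a coactivator of AKT, 10.17 and 10.60 against 9.81 and 9.96. Nr5a2, an orphan nuclear receptor, had a difference of 0.36. For Prdm14, Tcl1 and Nr5a2 Scrambled-dox was the highest array, whereas Tfcp2l1 was highest in Scrambled+dox.

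Genes of the primed epiblast, the later state of pluripotency, were split. Of 19 genes, 7 (36.8%) had non-overlapping groups with the scrambled arrays lower and 4 (21.1%) with them higher, and the median was -0.11. The 4 higher ones were Krt18, Cldn6, Nodal and Cd24a. Dnmt3a, a de novo DNA methyltransferase, measured 9.23 and 9.59 against 9.80 and 9.96, and the Wnt effector Lef1 8.74 and 8.57 against 9.23 and 9.01. Sall2, a zinc finger factor, measured 6.90 and 7.43 against 7.76 and 7.57. All of these sat lower in both scrambled samples, but Dnmt3a and Sall2 had the lowest value in Scrambled+dox and Lef1 in Scrambled-dox. Primitive streak and mesoderm genes, the lineage named in the series title, had a median of 0.03 over 28 genes, with 1 lower and 7 higher without overlap.

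Many germline genes are kept silent in stem cells by PRC1.6. Of 32 germline genes, 11 (34.4%) had non-overlapping groups with the scrambled arrays lower and 5 (15.6%) with them higher, and the median was -0.11. The list mean was 6.57 in Scrambled+dox, 6.81 in Scrambled-dox, 6.75 in shRNA1-dox and 6.80 in shRNA2-dox, while the induced hairpin arrays had 7.86 and 7.82. Scrambled-dox was thus level with both uninduced hairpin arrays, and Scrambled+dox was the lowest array. The list's median was 0.06 without Scrambled+dox and -0.15 without Scrambled-dox, so its direction rests on Scrambled+dox. Mael, a piRNA pathway gene, measured 8.08 and 8.74 against 8.80 and 8.79 and reached 10.77 and 10.78 in the induced arrays. Meioc, a gene of meiotic entry, measured 7.71 and 8.56 against 8.58 and 8.33, with overlap, and was also lowest in Scrambled+dox. Stag3 and Calb2, as wide in the other direction, differed by 0.35 and 0.33 without overlap, and both were lowest in shRNA2-dox. The subunits of PRC1.6, 16 genes, had the same mean of 10.74 on all 4 arrays.

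Of 42 genes of the response to amino acid shortage, 8 (19%) had non-overlapping groups with the scrambled arrays higher, near the 14.5% of all genes, and 2 (4.76%) with them lower. The median was 0.08. Asns, asparagine synthetase, measured 12.97 and 13.01 against 12.70 and 12.63, a difference of 0.33 (SE 0.09). Pck2, mitochondrial phosphoenolpyruvate carboxykinase, measured 8.54 and 9.28 against 8.61 and 8.44, so Scrambled-dox alone was high. The list's median was 0.13 for Scrambled-dox and 0.00 for Scrambled+dox against the hairpin mean.

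Imprinted genes, which often vary between stem cell lines, had 14 of 38 genes (36.8%) without overlap and lower in the scrambled arrays and 3 (7.89%) higher. Igf2, an insulin-like growth factor, measured 10.15 and 9.52 against 10.61 and 10.25, in the order of the feeder markers, whereas Phlda2, a growth-restraining placental gene, had 10.62 and 11.05 against 11.31 and 11.54. The imprinted counts were 9 and 6 after median centring, so they depend on the scaling. Glutathione and xenobiotic genes went both ways. Gstm3 measured 10.72 and 10.86 against 10.10 and 10.42 and Gstm6 differed by 0.47. In the other direction, Gsto1, also a glutathione transferase, differed by -0.32 and Srxn1 by -0.36. Targets of p53 (3 lower and 2 higher of 27), histones (4 and 3 of 35) and interferon-induced and MHC genes (5 and 6 of 35) had shares near those of all genes or below.

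Housekeeping genes had a median difference of 0.00 over 10 genes, with B2m, the light chain of MHC class I, the widest at -0.26. The median difference over the genes of a chromosome lay between -0.027 and 0.009 for the 20 chromosomes other than Y, beside -0.006 for all genes, and for single between-group pairs of arrays between -0.048 and 0.025. The 9 genes of the Y chromosome had a median difference of -0.043, with single between-group pairs down to -0.12 and shRNA2-dox above shRNA1-dox by 0.181. The Y-linked genes of the sex-linked list were dim, below the lower quartile on all 4 arrays. Eif2s3y measured 4.43 and 4.13 in the scrambled arrays against 4.65 and 5.15, and Uty 4.20 and 4.21 against 4.45 and 5.07, with shRNA2-dox highest for both. Xist, the RNA that coats the inactive X, measured 8.11, 7.45, 8.53 and 7.16 in the same order of arrays, which overlapped and followed the order of the feeder markers within each group.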

How the data were processed

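Expression was read on 1 array per sample; the analysis started from the log2 values deposited by the authors. Per the submitters' processing notes they were made with Affymetrix Power Tools and RMA, whose versions and options are not given in the sources used here. RMA equalises arrays, so a shift of most genes is largely removed. Of 35556 probe sets, 21789 had 1 gene symbol, 1621 several and 12146 none; symbols came from the platform annotation, 21698 of them found in RefSeq. The probe set with the highest mean over 6 arrays stood for a gene with several.

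Arrays were compared with limma 3.58.1 in R 4.3.3, with moderated variances and Benjamini-Hochberg adjustment over 19938 genes, on the 4 arrays without knockdown; the steps were tested on simulated data. Array medians lay between 7.02 and 7.08, array correlations between 0.991 and 0.996, and with 2 arrays a group their number limits precision. Named genes were Pcgf6, the 12 of widest gap in each direction (predicted and microRNA models skipped), the 5 of smallest p in each direction and up to 4 of widest difference per list; any other gene named was singled out after its values were seen. The groups, lists and rules were chosen with earlier results of these data known, and the epithelial and wider macrophage lists after the values were seen. Promoters are RefSeq's on GRCm38.p6, and lists were given no test. Alternatives were scaling, probe set choice, dim genes, moderation, the arrays fitted, feeder content as a covariate and leaving out each array.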

Additional observations from a re-analysis of the deposited data

How the results depend on the processing

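Limma called 0 genes under all 14 alternatives, with 556 to 1876 genes at an unadjusted p under 0.05; the smallest adjusted p of any was 0.0688, without Scrambled+dox. The feeder mean lay between -0.815 and -0.253 and the pluripotency mean between 0.022 and 0.137 when 1 array was left out. Counts without overlap were recomputed after the values were seen. Without the dimmest 50% of genes they were 2046 lower and 1389 higher, and 8 lower at 1.5-fold, from fewer genes. Leaving out 1 array gave 6668 to 7412 lower and 5301 to 6804 higher, and at 1.5-fold 33 to 213 lower and 7 to 20 higher, from fewer comparisons. Over the alternatives for the 107 genes named, the direction was kept in 1335 of 1360 values. Many of these values could not turn, so the count is no measure of robustness. Adding the induced hairpin arrays without a covariate, fitting an intensity trend or dropping dim genes leaves a gene's difference as it was. Leaving out 1 array cannot turn a gene whose groups did not overlap. With the feeder mean as a covariate, differences became positive for Acta2 (0.035), B2m (0.249), Col1a1 (0.167), Col1a2 (0.135), Col3a1 (0.06), Igfbp5 (0.072), Prrx1 (0.088), Tagln (0.208), Thbs2 (0.036), Wnt5a (0.003) and Xist (0.503), and negative for Pck2 (-0.115). Median centring turned Pou5f1 to 0.028. Leaving out 1 array gave ranges that crossed 0 for B2m (-0.594 to 0.078), Cdx2 (-0.055 to 0.171), Cnn1 (-0.003 to 0.139), Elf5 (-0.151 to 0.056), Epcam (-0.205 to 0.028), Meioc (-0.745 to 0.106), Pou5f1 (-0.041 to 0.037), Tagln (-0.463 to 0.096) and Xist (-0.747 to 0.623). The cause of these changes was not tested. No paired analysis was possible because the arrays come from different lines and the labels tie no scrambled array to a hairpin array.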

Other observations

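The remaining gene lists are given by their counts, beside 19% lower and 14.5% higher of all genes. Of 35 immediate early genes, 9 had non-overlapping groups with the scrambled arrays lower and 6 with them higher, and of 37 Hox genes 9 were lower and 1 higher, with a median of -0.06. Proliferation genes had 7 lower and 1 higher of 30, glycolysis and hypoxia genes 7 and 2 of 24, and cholesterol synthesis genes 2 and 3 of 20. Endoderm genes had 5 lower and 3 higher of 23, neuroectoderm genes 7 (31.8%) and 2 of 22, and polycomb subunits outside PRC1.6 had 2 and 5 of 21. Glutathione and xenobiotic genes had 5 lower and 6 higher of 25, the 6 epidermis markers 0 and 2 (33.3%; Sfn and Krt14), and the 2 measured Schwann cell and neural crest markers 1 and 0. Mir297b, the gene outside the naming rule with a 1.5-fold gap, measured 6.27 in Scrambled+dox, 6.25 in Scrambled-dox, 7.32 in shRNA1-dox and 6.99 in shRNA2-dox, and 6.36 and 6.25 in the induced hairpin arrays.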
